A study of Mus musculus with 6 samples.

Results

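Glutathione is a tripeptide of glutamate, cysteine and glycine that serves the cell as a reducing agent and as a handle for the removal of reactive compounds. Its genes were followed here in the renal cortex of mice on a steatohepatitis-inducing diet with and without tofogliflozin. The 33 genes were chosen by symbol: 22 glutathione transferases (GSTs) and 11 genes of glutathione synthesis, cystine uptake, reduction, breakdown and peroxide removal. All 33 were found among the 24346 genes of the deposited tables, and 29 of them had at least 1 FPKM (fragments per kilobase of transcript, scaled to a common number of fragments) in at least 3 of the 6 libraries, which was the condition for a test.

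The animals were C57BL/6 mice kept for 8 weeks on a diet written HF/HC/HS/BA in the labels. High fat, high cholesterol and bile salt were among its parts, and the HS part is not spelled out here. The control group of 3 mice received that diet alone, and in the other group of 3 mice it contained tofogliflozin, an inhibitor of the renal glucose transporter SGLT2. Both groups carried the dietary load, so every difference below is between drug and no drug on the diet, and mice on an ordinary diet were not analysed here. Neither age nor sex is stated in the labels.

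GSTs join glutathione to electrophilic compounds. The soluble ones form classes named by Greek letters, and a separate family, the MGSTs, sits in membranes. Glutamate-cysteine ligase (a catalytic subunit, Gclc, and a modifier subunit, Gclm) and glutathione synthetase (Gss) make glutathione, peroxidases oxidise it, glutathione reductase (Gsr) regenerates it with NADPH, and gamma-glutamyl transferase (Ggt1) on the proximal tubule brush border begins its breakdown. The transcription factor NRF2 induces many of these genes through antioxidant response elements.

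None of the 29 tested genes passed the threshold over all genes tested. The count was 0 at limma adjusted p under 0.05, against 31 of 12248 genes or 0.253% (0.196% higher and 0.0572% lower with tofogliflozin). By an unadjusted limma p under 0.05 there were 11 of 29 genes (37.9%), compared with 13.1% of all genes tested. The 7 higher ones were Gsta2, Gsta4, Gstk1, Gsto1, Gstt1, Gstt2 and Mgst3 (background 6.7%), and the 4 lower ones were Gclm, Ggct, Gsr and Gss (background 6.39%). Under the alternative settings the 11 became between 7 (without diet replicate 1) and 15 (without diet replicate 2).

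The same 11 genes and Gpx3 had libraries that did not overlap between the groups, 12 of 29 (41.4%), compared with 18.5% of all genes tested. In 8 genes every tofogliflozin library was above every diet library (background 9.63%), and in 4 every one was below (background 8.86%). Of the 19 tested GSTs 7 were higher in this sense and 0 lower, and of the 10 other genes 1 was higher and 4 were lower. The median log2 change was 0.14 over the tested GSTs and -0.21 over the other genes, beside 0.00 over all genes tested.

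The libraries carried markers of renal cortex, with 6 proximal tubule genes summing to 8140 to 9998 FPKM on the diet and 8540 to 9329 FPKM with tofogliflozin. Of 6 markers of the S3 segment of the proximal tubule, all had a log2 change below 0, as had 6161 of the 12248 genes tested. By an unadjusted limma p under 0.05, 4 of these 6 were lower, against 6.39% of all genes tested. Slc5a1 (-0.0025) and Slc16a9 (-0.0029) hardly changed. The sum of the 6 was 3206 to 4380 FPKM on the diet and 2079 to 2887 FPKM with tofogliflozin, most of it from Acy3. The 4 distal convoluted tubule markers summed to 421 to 466 and 497 to 561 FPKM. The 6 collecting duct markers summed to 200 to 258 FPKM on the diet and to 258 to 318 FPKM with the drug, so the groups all but touched. By an unadjusted limma p under 0.05, 3 of these 6 were higher (background 6.7%), while Fxyd4 had a log2 change of -0.32. All 8 macrophage markers also had a log2 change below 0, 2 of them at an unadjusted limma p under 0.05 (background 6.39%). Their sums were 109 to 297 and 90.5 to 139 FPKM, highest in diet replicate 2. None of the genes in these 5 lists was at 0 in any library. Of 6 lymphocyte markers, 5 had a mean under 1 FPKM. The 4 adipocyte markers differed among themselves. Lep was listed at 0 throughout and Adipoq in 4 libraries, while Fabp4 was at 58.1 to 72.4 FPKM. Cfd was at 5.03 FPKM in diet replicate 1 and at most 0.87 FPKM in any other library, and Adipoq was also highest in diet replicate 1 (0.455 FPKM). In bulk tissue, fewer cells of a type and less RNA per cell cannot be told apart, and the part of these markers in the results was not tested.

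**Figure D1:**
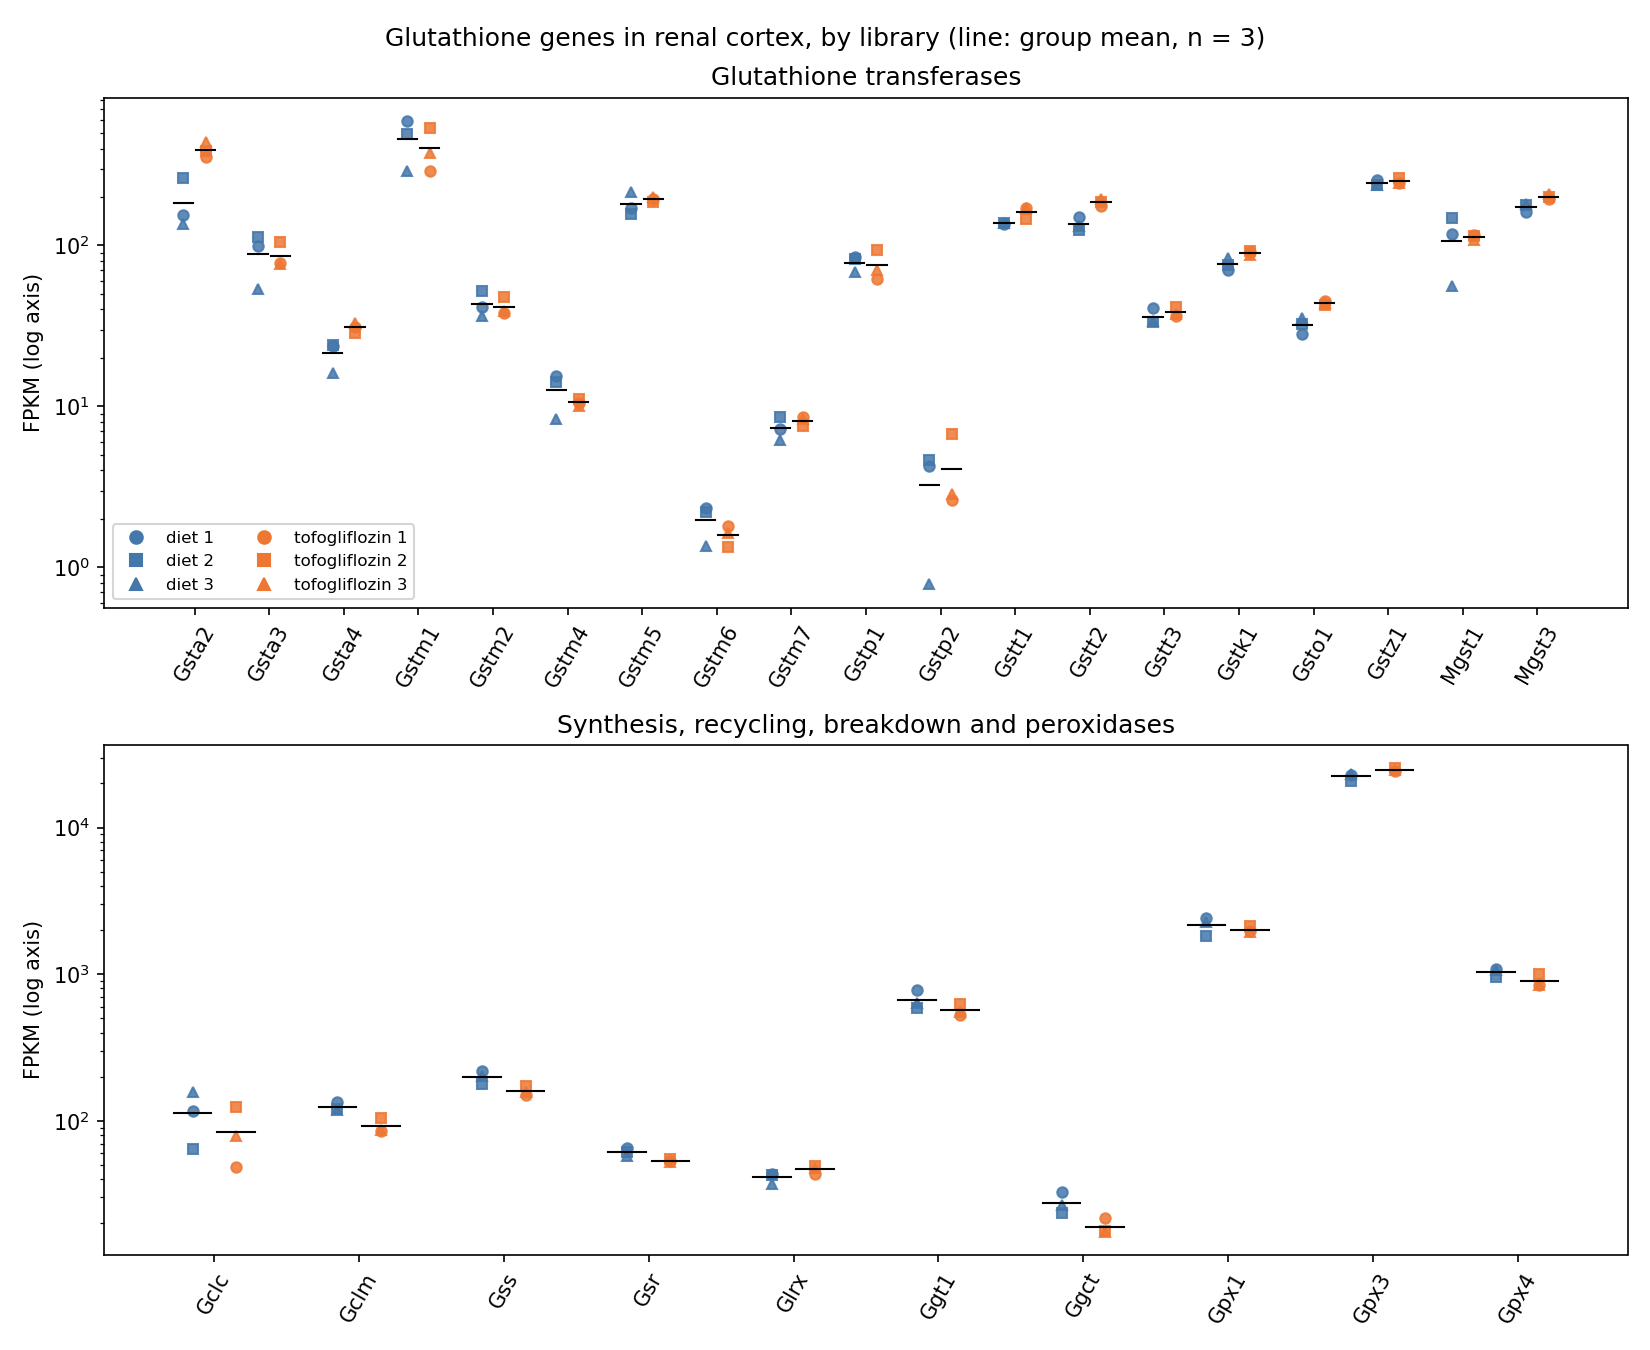
FPKM of the 29 tested genes in each library on a log axis, with diet in blue and tofogliflozin in orange, a marker shape for each replicate number and a black line at each group mean. Gsta2 lies between 136 and 263 FPKM on the diet and between 352 and 442 FPKM with tofogliflozin, and Gpx3 stands far above every other gene.

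Several genes lie in clusters of relatives, which bears on how firmly each value can be read. In GRCm38 (mm10), the 7 mu-class genes occupy 149.1 kb of chromosome 3, from 107895821 to 108044894. Gstp1 and Gstp2 lie within 10.6 kb of chromosome 19, and the 3 theta-class genes lie with Ggt1 within 275.8 kb of chromosome 10. Gclc, Gsta4, Gsta1 and Gsta2 lie within 601.3 kb of chromosome 9, where Gsta2 runs on the minus strand from 78331018 to 78355788. Of all stretches of 50 bases in the protein-coding transcripts of Gsta1, 89.7% also occur in a transcript of another gene. For Gsta2 the share was 47.4% (32.9% with Gsta1, 32.9% with Gm10639 and 28.2% with Gm3776). For Gstp1 it was 51.0% and for Gstp2 50.4%, and for Gpx4 it was 51.4%, shared with the pseudogene Gpx4-ps2. In the mu class the share was 28.8% for Gstm3, 19.9% for Gstm1, 9.74% for Gstm6 and 8.3% for Gstm2. Reads from such stretches cannot be assigned to 1 gene by sequence, so these values are uncertain. No stretch of the protein-coding transcripts was shared for Gsta3, Gsta4, Gstm4, Gstm5, Gstt1, Gstk1, Gsto1, Gstz1, Mgst1, Mgst3, Gclc, Gss, Gsr, Ggt1, Gpx1 or Gpx3. Stretches were compared in transcript direction only, so genes on the other strand do not count here. Exons of Gstm5 (13.9%, with 4933431E20Rik), Gstz1 (9.1%, with Pomt2) and Gss (6.7%, with Acss2) overlap a gene on the other strand.

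The promoters of 4 genes whose groups did not overlap are shown, the 2 lower genes that hold a known motif and 2 higher genes that do not. Each is the 250 bases before the RefSeq transcription start in GRCm38.p6, read 5′ to 3′ along the gene's strand, and capitals mark a match to TGACNNNGC, the core of the antioxidant response element, or to its reverse complement. Gclm (plus strand) and Ggct (minus strand) were lower with tofogliflozin, and Gsta2 (minus strand) and Gsto1 (plus strand) were higher.
Gclm, chr3:122245307-122245556: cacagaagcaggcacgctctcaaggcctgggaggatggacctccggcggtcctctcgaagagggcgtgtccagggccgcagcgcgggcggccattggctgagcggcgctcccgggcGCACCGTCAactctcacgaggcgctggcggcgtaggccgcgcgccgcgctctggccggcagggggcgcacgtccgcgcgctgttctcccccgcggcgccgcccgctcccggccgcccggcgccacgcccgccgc
Ggct, chr6:54992868-54993117: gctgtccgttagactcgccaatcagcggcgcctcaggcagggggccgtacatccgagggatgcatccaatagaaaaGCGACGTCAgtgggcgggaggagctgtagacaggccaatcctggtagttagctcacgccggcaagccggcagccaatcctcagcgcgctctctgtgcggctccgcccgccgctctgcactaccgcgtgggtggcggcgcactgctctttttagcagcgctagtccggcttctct
Gsta2, chr9:78347146-78347395: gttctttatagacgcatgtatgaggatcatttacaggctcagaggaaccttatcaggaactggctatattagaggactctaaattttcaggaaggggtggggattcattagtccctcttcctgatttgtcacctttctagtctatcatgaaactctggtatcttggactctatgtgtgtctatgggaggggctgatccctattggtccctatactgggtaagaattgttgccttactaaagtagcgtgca
Gsto1, chr19:47854723-47854972: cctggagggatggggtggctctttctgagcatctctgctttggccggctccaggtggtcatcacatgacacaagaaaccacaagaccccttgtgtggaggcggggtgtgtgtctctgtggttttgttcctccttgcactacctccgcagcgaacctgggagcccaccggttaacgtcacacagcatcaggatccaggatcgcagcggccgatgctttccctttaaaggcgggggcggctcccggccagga

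RefSeq promoter entries, which also take in the first 50 transcribed bases, were found for 29 of the 33 genes and not for Gclc, Gsr, Gsta4 and Gstt2. The motif, searched on both strands, occurred in an entry of 7 of the 29 genes (24.1%), Gclm, Ggct, Gsta3, Gstm5, Gstm7, Mgst1 and Ggt1, and in 14.0% of all 27025 genes with an entry. Some genes have several annotated starts, and in Ggt1 3 of 4 entries hold the motif. Among genes whose groups did not overlap, it was found in 0 of 6 that were higher and in 2 of 3 that were lower. Gss, the other lower gene with an entry, has no match and is not shown above. Among tested genes whose groups overlapped, the motif was found in 5 of 16, and a link between motif and direction was not tested. Both matches printed above lie on the strand opposite to the gene, and Ggct has another match just after the start. A match is a description of letters in this window and no evidence of a bound site. Sequence outside the window was not searched, so a missing match does not mean that a gene lacks the motif.

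Among the alpha-class GSTs, which act on products of lipid peroxidation, Gsta2 was at 154, 263 and 136 FPKM in diet replicates 1 to 3 and at 352, 387 and 442 FPKM in tofogliflozin replicates 1 to 3. Every tofogliflozin library was above every diet library, with diet replicate 2 the nearest to them. Its log2 change of 1.15 ± 0.23 (SE; 95% interval 0.63 to 1.66) was the largest of the 29 genes, and the limma adjusted p of 0.0881 missed the threshold. Gsta2 passed without diet replicate 2 (limma adjusted p = 0.0107) and with array weights (0.0316), and its adjusted p ran from 0.0107 to 0.329 over 14 other settings. Gsta4, which acts on the lipid aldehyde 4-hydroxynonenal, was at 23.9, 24.1 and 16.2 FPKM on the diet and at 31.3, 28.6 and 33.2 FPKM with the drug. The groups did not overlap, with a log2 change of 0.53 ± 0.15 (SE; limma adjusted p = 0.199).

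Gsta3 had overlapping groups, at 98.6, 112 and 53.4 FPKM on the diet and at 77.2, 106 and 76.5 FPKM with tofogliflozin, and the 95% interval of its log2 change ran from -0.57 to 0.63. Its log2 change was -0.30 without diet replicate 3, the lowest library, and -0.13 without tofogliflozin replicate 2, both with the other sign than with all 6 libraries. Gsta1 was listed at 0 in 4 libraries and at 0.175 and 0.474 FPKM in tofogliflozin replicates 2 and 3, and was not tested. Because Gsta1 and Gsta2 share much of their sequence, the class was also summed. The sum does not take in Gm10639 and Gm3776, which also share stretches with Gsta2, and Gsta1 added at most 0.474 FPKM to it. The 4 alpha-class genes together gave 277, 399 and 205 FPKM on the diet and 461, 522 and 552 FPKM with the drug, or 294 ± 98.1 and 512 ± 46.7 FPKM (mean ± SD, n = 3), a ratio of 1.74. Without Gsta2 the sums overlapped (109 ± 35.1 and 118 ± 14.5 FPKM), so the difference in the sum lay mostly in Gsta2, whose share of it was 55.8% to 66.1% on the diet and 74.2% to 80.1% with tofogliflozin.

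The theta-class GSTs, which favour small halogenated and sulfate substrates, were higher as a sum in each tofogliflozin library. The sum of Gstt1, Gstt2 and Gstt3 was 326, 298 and 304 FPKM on the diet and 382, 373 and 403 FPKM with the drug, a ratio of 1.25. Gstt2 was at 150, 125 and 131 FPKM on the diet and at 175, 186 and 195 FPKM with tofogliflozin. The groups did not overlap and its log2 change was 0.45 ± 0.09 (SE; limma adjusted p = 0.0867), the smallest adjusted p of the 29 genes. Gstt1 was at 136, 139 and 139 FPKM and at 170, 146 and 170 FPKM, again without overlap, and its log2 change was 0.23 ± 0.08 (limma adjusted p = 0.284). Gstt3 was at 36.1 ± 3.93 and 38.6 ± 2.61 FPKM with overlapping libraries. Part of its sequence (20.6% of its stretches of 50 bases) also occurs in other genes, mainly the overlapping model Gm20441.

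The mu class, which had the highest summed FPKM of the 4 classes in both groups, had overlapping groups. Its sum was 831, 728 and 555 FPKM on the diet and 545, 790 and 637 FPKM with tofogliflozin, and the lowest libraries of the 2 groups, diet replicate 3 and tofogliflozin replicate 1, were close to each other. Gstm1, which acts on aromatic electrophiles and epoxides, made up 52.1% to 71.2% of that sum, and is uncertain to the extent of its shared stretches. It was at 592, 493 and 289 FPKM on the diet and at 291, 535 and 377 FPKM with the drug, a spread within each group wider than the difference between them (95% interval of the log2 change -0.84 to 0.49). Gstm5 was at 172, 158 and 213 FPKM on the diet and at 196, 187 and 201 FPKM with the drug, and Gstm2 at 43.4 ± 8.20 and 41.7 ± 5.38 FPKM. Gstm4 (12.7 ± 3.76 and 10.6 ± 0.545 FPKM), Gstm7 (7.32 ± 1.22 and 8.13 ± 0.521 FPKM) and Gstm6 (1.97 ± 0.535 and 1.6 ± 0.24 FPKM) were low and overlapped as well. Gstm3 was listed at 0.352, 0.350 and 0 FPKM on the diet and at 0, 0.116 and 0 FPKM with the drug, and was not tested.

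Gstp1, the main pi-class GST, was at 84.5, 82.1 and 67.9 FPKM on the diet and at 62.0, 93.6 and 69.9 FPKM with tofogliflozin, and Gstp2 at 4.26, 4.67 and 0.783 FPKM and at 2.64, 6.72 and 2.84 FPKM. Both were highest in tofogliflozin replicate 2. Because these 2 genes share much of their sequence they were also summed, and the sums overlapped between groups (81.4 ± 11.1 and 79.2 ± 18.7 FPKM).

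**Figure D2:**
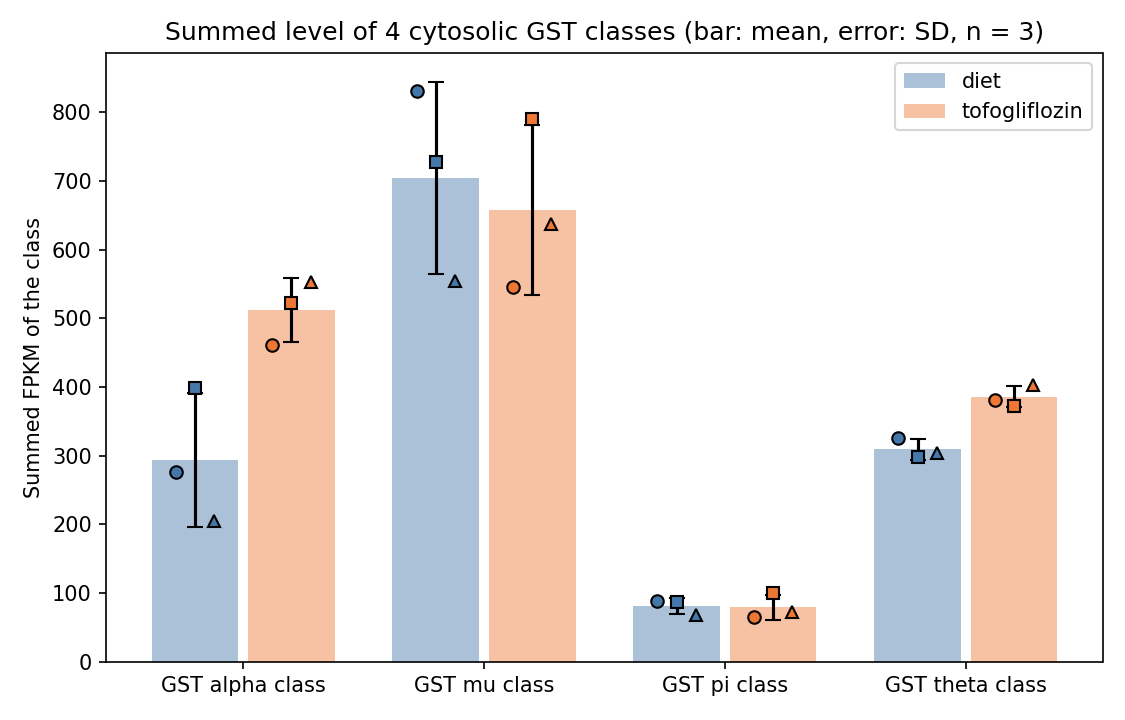
Summed FPKM of the alpha, mu, pi and theta GST classes; bars are group means, error bars SD (n = 3) and points single libraries (circle, square and triangle for replicates 1, 2 and 3). The alpha sums lie at 205 to 399 FPKM on the diet and 461 to 552 FPKM with tofogliflozin and the theta sums at 298 to 326 and 373 to 403 FPKM, while the mu and pi sums overlap.

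The remaining soluble GSTs are single genes. Gsto1, an omega-class enzyme that reduces dehydroascorbate and methylated arsenic, was at 28.1, 32.5 and 35.5 FPKM on the diet and at 45.3, 42.9 and 43.6 FPKM with the drug. The groups did not overlap, with a log2 change of 0.45 ± 0.09 (SE; limma adjusted p = 0.0967). Gstk1, a kappa-class enzyme of mitochondria and peroxisomes, was at 70.2, 75.3 and 83.7 FPKM and at 91.0, 92.6 and 87.2 FPKM, which did not overlap (log2 change 0.24 ± 0.08; limma adjusted p = 0.263). Gstz1, which isomerises maleylacetoacetate in tyrosine breakdown, hardly varied, at 244 ± 10.5 and 251 ± 10.8 FPKM, and the 95% interval of its log2 change ran from -0.13 to 0.21.

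Of the membrane-bound enzymes, Mgst3 was at 160, 179 and 180 FPKM on the diet and at 194, 200 and 208 FPKM with tofogliflozin, without overlap (log2 change 0.21 ± 0.08; limma adjusted p = 0.291). Mgst1, a microsomal transferase and peroxidase, was at 117, 148 and 55.9 FPKM on the diet but held within 117, 114 and 108 FPKM with the drug. Here the diet libraries lay on both sides of the tofogliflozin libraries. Mgst2, which makes leukotriene C4, was listed at 0 in 5 libraries and at 0.269 FPKM in tofogliflozin replicate 3.

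All 3 synthesis genes had a log2 change below 0, as had 6161 of the 12248 genes tested. The groups of 2 of these 3 genes did not overlap (background 8.86% lower without overlap). Gclm was at 134, 120 and 118 FPKM on the diet and at 85.7, 104 and 86.1 FPKM with tofogliflozin, and every tofogliflozin library was lower. Its log2 change was -0.43 ± 0.10 (SE; limma adjusted p = 0.135). Gss, which adds glycine in the last step, was at 218, 179 and 202 FPKM on the diet and at 149, 173 and 156 FPKM with the drug. These groups were apart by little, since diet replicate 2 was close to tofogliflozin replicate 2, and the log2 change was -0.32 ± 0.10 (limma adjusted p = 0.225). Exons of Gss overlap those of Acss2 and of antisense genes on the other strand, and whether strand was used in counting is not given in the sources used here.

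Gclc, the catalytic partner of Gclm, varied by far more than Gclm within each group. It was at 116, 64.3 and 157 FPKM on the diet and at 48.2, 124 and 79.3 FPKM with the drug. Its groups overlapped, and the 95% interval of the log2 change ran from -1.32 to 0.46. The ratio of Gclc to Gclm FPKM ran from 0.537 to 1.33 over the 6 libraries. Slc7a11, which imports cystine in exchange for glutamate, was at most 0.02 FPKM in any library and was not tested.

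Among the genes of reduction, Gsr was at 65.5, 61.0 and 57.8 FPKM on the diet and at 53.0, 54.9 and 52.5 FPKM with tofogliflozin, lower in each drug library (log2 change -0.19 ± 0.07; limma adjusted p = 0.298). Glrx, a glutaredoxin that removes glutathione from protein thiols, was at 41.2 ± 3.62 and 46.8 ± 2.87 FPKM with overlap (limma adjusted p = 0.423). In breakdown, Ggct, the cytosolic gamma-glutamylcyclotransferase, was at 32.6, 23.5 and 26.6 FPKM on the diet and at 21.7, 17.6 and 17.6 FPKM with the drug. It had the largest difference among the genes that were lower without overlap, a log2 change of -0.51 ± 0.13 (limma adjusted p = 0.181). Ggt1, at 776, 583 and 637 FPKM and at 523, 628 and 548 FPKM, overlapped through diet replicate 2 and tofogliflozin replicate 2 (limma adjusted p = 0.492).

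The peroxidases were the most abundant genes. Gpx3, the secreted plasma peroxidase for which the kidney is the main source, had the second highest mean FPKM of all 24346 genes and took 3.61% to 4.14% of a library's total FPKM. It was at 22868, 20665 and 23349 FPKM on the diet and at 24110, 25363 and 24716 FPKM with tofogliflozin. The libraries did not overlap, but the difference was small (log2 change 0.15, 95% interval -0.23 to 0.53, limma adjusted p = 0.755). This interval rests partly on the variance that limma expects at so high a mean, and not on the spread of Gpx3 alone. The limma adjusted p was 0.489 without the trend of variance with mean and 0.586 with a minimum of 5 FPKM. Under quantile normalization, which gives the same rank the same value, the difference was 0. Gpx1, the cytosolic peroxidase, was at 2172 ± 311 and 2013 ± 104 FPKM, and Gpx4, which reduces phospholipid peroxides, at 1032 ± 63.4 and 899.6 ± 89.9 FPKM. Both overlapped between groups (limma adjusted p = 0.791 and 0.455).

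**Figure D3:**
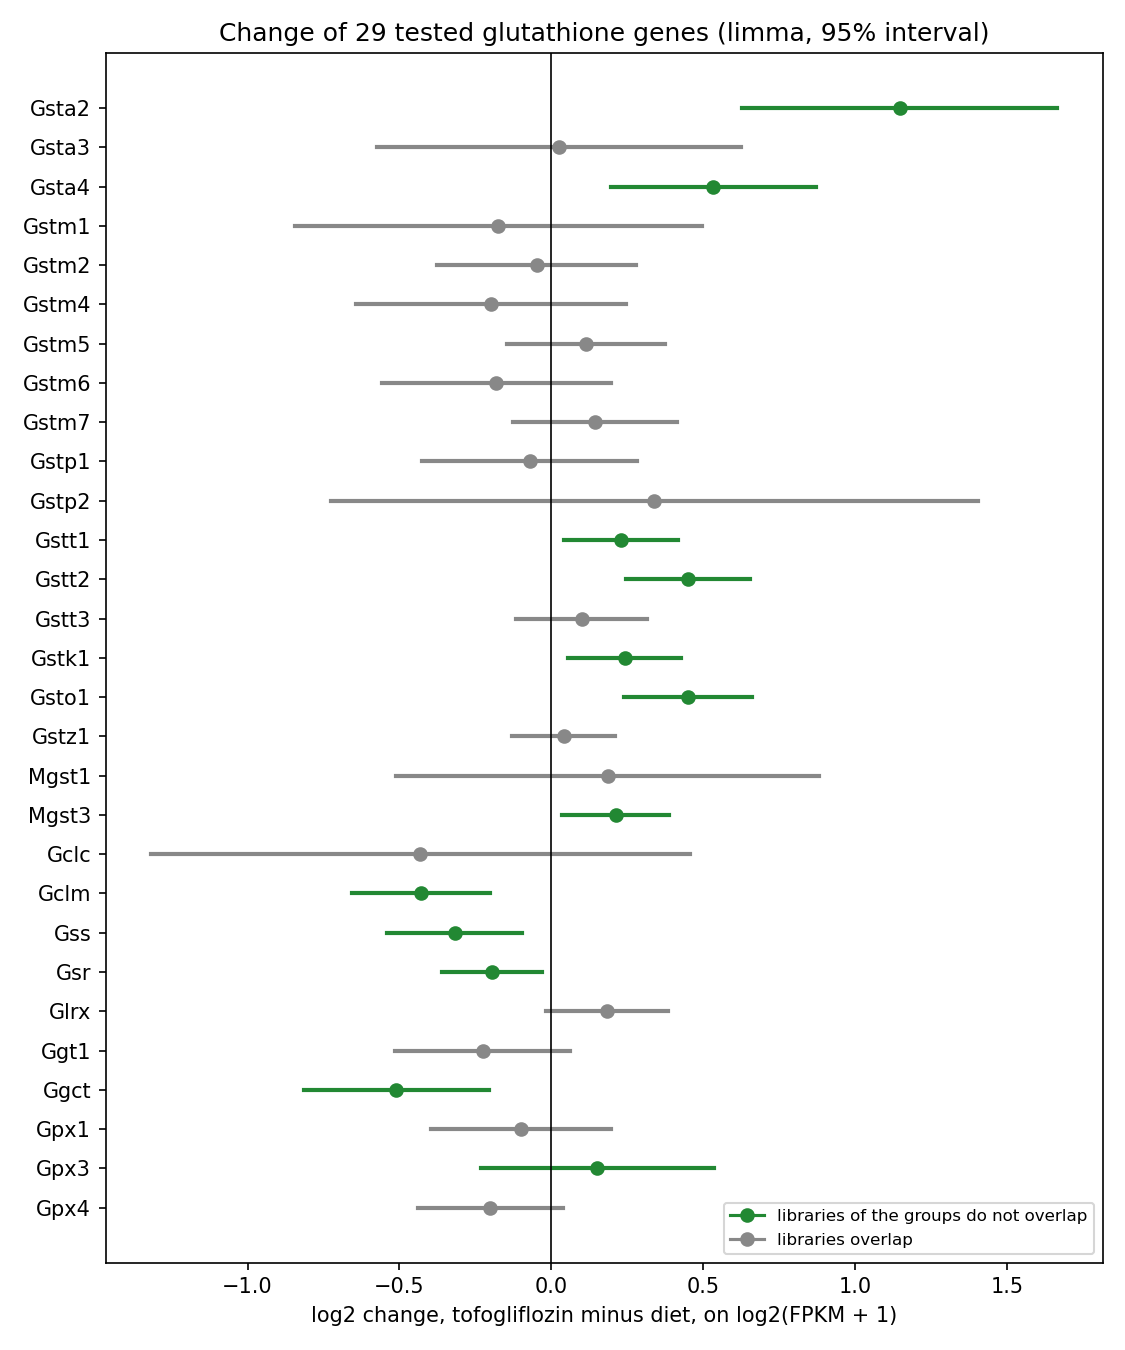
Log2 change of each of the 29 tested genes, tofogliflozin minus diet, on the log2(FPKM + 1) scale, with limma's 95% interval; green marks genes whose libraries did not overlap between groups. Gsta2 lies farthest to the right at 1.15 and Ggct farthest to the left at -0.51, and intervals of Gclc, Gstp2, Mgst1 and Gstm1 are wide.

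The genes with wide intervals often had the same low library. Diet replicate 3 was the lowest of the 6 for 10 of 29 genes (34.5%), compared with 16.0% of all genes tested. These were Gsta2, Gsta3, Gsta4, Gstm1, Gstm2, Gstm4, Gstm7, Gstp2, Mgst1 and Glrx. The same library was the highest for Gclc and Gstm5. Without it, Gsta2 and Gsta4 had log2 changes of 0.96 and 0.35, while the change of Mgst1 was -0.22 and that of Gstp2 -0.20, both with the other sign than with all 6 libraries. Diet replicate 1 was the highest library for 10 of 29 genes, compared with 18.6% of all genes tested. These were Gstm1, Gstm4, Gstm6, Gclm, Gss, Gsr, Ggt1, Ggct, Gpx1 and Gpx4.

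**Figure D4:**
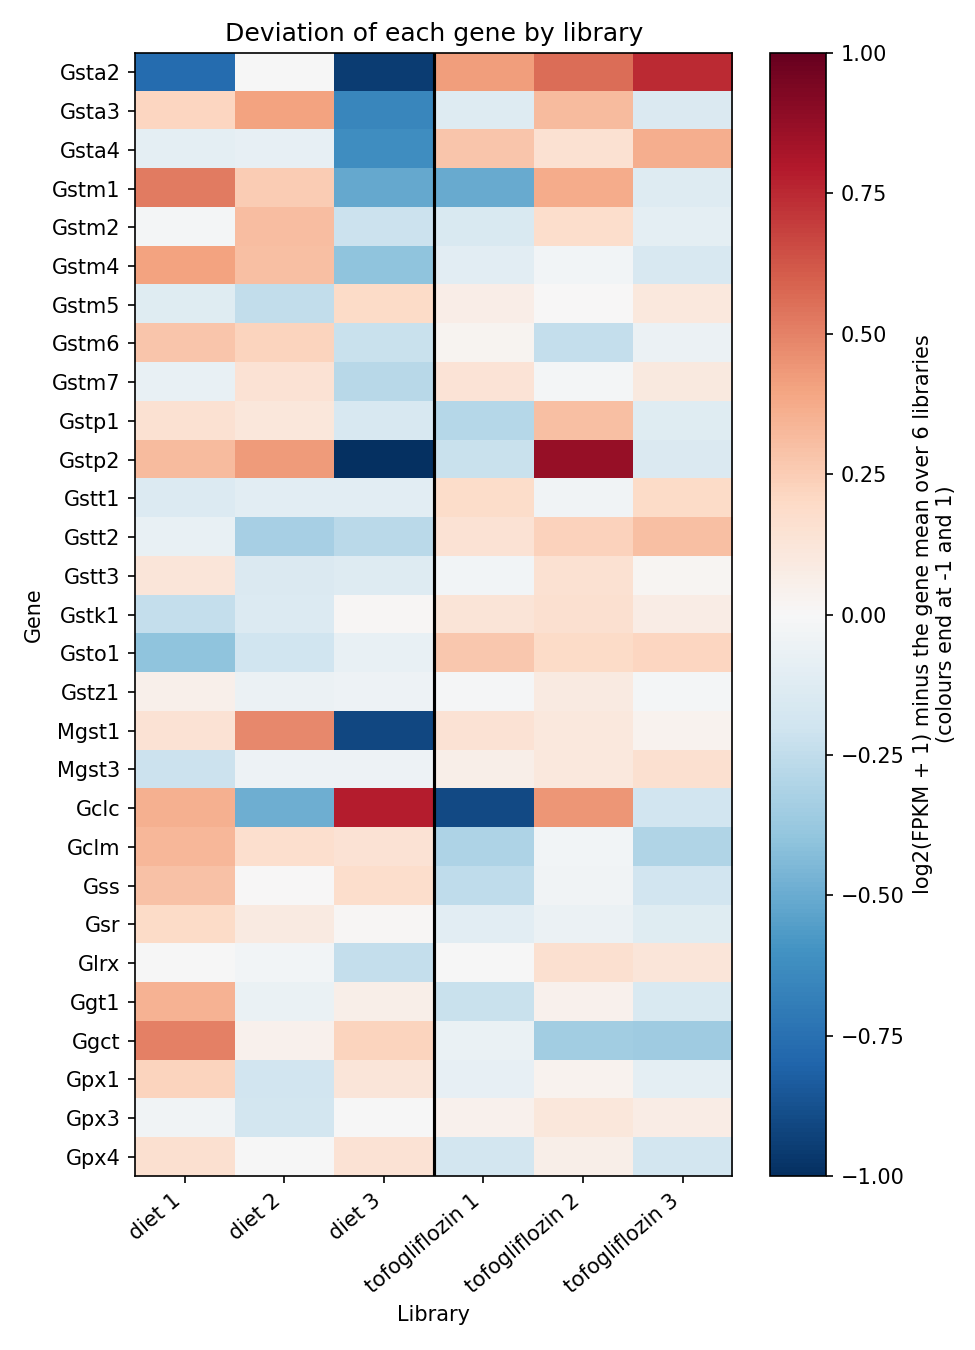
Difference of log2(FPKM + 1) from the gene's mean over the 6 libraries, for the 29 tested genes in rows and the libraries in columns; red is above the mean, blue below, and colours end at -1 and 1. The column of diet replicate 3 is the lowest for 10 genes, and Gclc lies above and below its mean in both groups.

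The rest of the glutathione pathway was described with 7 further lists, of which 82 genes were in the tables and 71 were tested. None passed over all genes tested (0 at limma adjusted p under 0.05), 17 reached an unadjusted p under 0.05 (background 13.1%), 8 of them higher (background 6.7%) and 9 lower (background 6.39%), and the median log2 change was -0.04. In cysteine supply and transport, where by the unadjusted p 4 of 13 genes were higher (background 6.7%) and 3 were lower (background 6.39%), Slc1a5, a neutral amino acid transporter, was at 13.9, 16.5 and 14.9 FPKM on the diet and at 22.8, 21.9 and 25.2 FPKM with the drug (limma adjusted p = 0.0532). Slc7a9, the light chain of the renal cystine transporter, was at 113 ± 14.9 and 143 ± 2.74 FPKM without overlap. Slc1a1, a glutamate transporter that also carries cysteine, was at 101, 83.9 and 98.9 FPKM on the diet and at 69.8, 79.4 and 74.8 FPKM with the drug, without overlap. Cth, which makes cysteine from cystathionine, was at 105 ± 6.39 and 125 ± 9.02 FPKM (limma adjusted p = 0.244 for Cth, 0.199 for Slc1a1 and 0.201 for Slc7a9).

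Among enzymes that finish the breakdown of glutathione conjugates, by the unadjusted p 1 of 11 tested genes was higher and 2 were lower, against 6.7% and 6.39% of all genes tested. Nat8, which acetylates cysteine conjugates to mercapturic acids, was at 386, 315 and 359 FPKM on the diet and at 492, 496 and 493 FPKM with tofogliflozin (limma adjusted p = 0.0795). Acy3, an acylase that removes the acetyl group from such products, was at 3329, 2230 and 2364 FPKM and at 1427, 2030 and 1312 FPKM (limma adjusted p = 0.201), and it is also 1 of the S3 markers above. Outside the rule for named genes, Acy1, another acylase in this list, was at 83.1 ± 9.96 and 84.5 ± 14.1 FPKM with overlap (limma adjusted p = 0.966). Lap3, an aminopeptidase, was at 273 ± 29.4 and 220 ± 14.2 FPKM, and Dpep1, the renal dipeptidase, at 105 ± 14.7 and 89.2 ± 18.3 FPKM with overlap.

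Of 24 NRF2 pathway and target genes outside glutathione metabolism, by the unadjusted p 3 were higher and 2 lower, against 6.7% and 6.39% of all genes tested. The log2 change was below 0 in 18 of the 24 and above 0 in 6, with a median of -0.10, while 6161 of the 12248 genes tested were below 0. Akr1c13, an aldo-keto reductase, was at 7.36 ± 0.728 and 12.7 ± 2.22 FPKM (limma adjusted p = 0.0726), Cbr1, a carbonyl reductase, at 39.4 ± 3.16 and 50.9 ± 3.24 FPKM (0.143) and Ephx1, an epoxide hydrolase, at 19.1 ± 1.85 and 24.7 ± 2.27 FPKM (0.199). Hmox1, haem oxygenase, was at 26.1 ± 6.61 and 16.8 ± 2.62 FPKM (limma adjusted p = 0.229). The groups of these 4 genes did not overlap, with Hmox1 close to doing so. The other lower gene by the unadjusted p, Osgin1, falls outside the rule for named genes. It was at 35.2 ± 9.04 and 24.7 ± 2.21 FPKM with overlap (limma adjusted p = 0.321). Outside the rule for named genes and chosen after their values were seen, the factor's own gene, Nfe2l2, was at 35.7 ± 4.97 and 38.6 ± 4.75 FPKM, and Nqo1, a widely used NRF2 target, at 36.2 ± 14.5 and 29.9 ± 7.47 FPKM with overlap.

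In NADPH supply, 1 of 8 genes reached an unadjusted limma p under 0.05, a share close to the 13.1% of all genes tested. This was H6pd, hexose-6-phosphate dehydrogenase of the endoplasmic reticulum, at 86.0 ± 7.60 and 65.9 ± 4.87 FPKM (limma adjusted p = 0.15). Of 6 genes listed as glutathione-dependent glyoxalase and aldehyde enzymes, which include Faah, a fatty acid amide hydrolase, all had a change below 0, as had 6161 of the 12248 genes tested, and 1 reached an unadjusted p under 0.05 (background 13.1%). It was Ethe1, a mitochondrial persulfide dioxygenase, at 103, 75.7 and 85.7 FPKM on the diet and at 67.4, 56.5 and 48.7 FPKM with the drug (limma adjusted p = 0.148). Among the other transferases (3 tested) and the other peroxidases and glutaredoxins (6 tested), 0 reached an unadjusted limma p under 0.05.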

How the data were processed

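The libraries were made from total RNA of renal cortex with a stranded mRNA kit, per the labels' protocols. For each library the authors deposited 1 table of gene symbols and FPKM values, per the file headers. The submitters' processing notes name Cuffdiff 2.2.1, TopHat2 2.1.1, SAMtools 0.1.18, Bowtie2 2.2.8 and build mm10. Their settings, the annotation and how libraries were scaled to each other: not given in the sources used here. FPKM had an upper quartile of 10.5 to 10.6 in each library. Counts are not part of these tables. Depth was estimated from the lowest values of genes with 1 annotated transcript, each taken to be 1 fragment. The medians were roughly 7540000 to 9830000 fragments per library, with quartiles from 4490000 (diet replicate 1) to 10300000 (tofogliflozin replicate 1). These medians put about 11.3 to 14.7 fragments behind 1 FPKM of a transcript of 1500 bases. A listed 0 can be a failed estimate, since Rpl26, which encodes a ribosomal protein, has it in 3 of 6 libraries.

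Groups and replicate numbers came from the labels (3 mice in each). The labels do not say whether libraries were prepared together, so a preparation difference between the groups could not be told apart from the drug. The p-values set the group difference against the spread between libraries within groups, after limma drew each gene's variance toward that of genes with a similar mean. A gene was tested where at least 3 of 6 libraries reached 1 FPKM. The test was that of limma 3.58.1 (R 4.3.3) on log2(FPKM + 1), with moderated variances following the mean, two-sided, and Benjamini-Hochberg adjustment over 12248 genes at a threshold of 0.05. This scale understates changes of low genes. The fit was tested on simulated data. No 2 libraries were identical, and log2 values of library pairs correlated at 0.980 to 0.990. Class sums have no test. Alternatives were a pseudocount of 0.1, other filters, scalings and variance models, array weights, the replicate number as a block and leaving out each library. Once the data had been seen, counts at an unadjusted p were added under each of them. The members and lists were chosen with earlier results of these data known. The rule for named genes took all members and, of each further list, up to 4 genes of smallest p. Positions, shared stretches and overlaps are from GENCODE M21 (GRCm38) and promoters from RefSeq (GRCm38.p6). Figures were drawn with matplotlib 3.10.9.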

Additional observations from a re-analysis of the deposited data

How the results depend on the processing

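Over 14 alternative settings, 392 of 404 values for single tested genes kept their direction and their side of the threshold, and 23 of 29 genes never changed sign. The other filters, the replicate block and the variance model leave the log2 change itself unaltered, so direction could not change there. No member passed with the reported settings, so a value could leave its side of the threshold only by passing. Under quantile normalization, the change of 0 of Gpx3 was counted as kept. The number of members passing was 0 to 1 with a library left out and 1 with array weights, Gsta2 each time. The number of all genes passing, 31, was 1 with no filter, 20 with a minimum of 5 FPKM, 123 with array weights and 2 to 66 with a library left out. The signs that changed belonged to genes with overlapping groups, each when a library was left out, and over these settings the log2 change ran from -0.30 to 0.23 for Gsta3, -0.47 to 0.041 for Gstm1, -0.17 to 0.092 for Gstm2, -0.24 to 0.055 for Gstp1, -0.20 to 0.64 for Gstp2 and -0.22 to 0.47 for Mgst1. With the replicate block, 0 members and 26 genes passed. Same-numbered libraries did not deviate together over all genes tested (correlations -0.05, -0.06 and 0.05). With 3 libraries in each group, this cannot settle whether the numbers pair mice. Members near 1 FPKM, such as Gstm6, rest on few fragments. The cause of these changes was not tested.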
